A study of Mus musculus with 8 samples.

Results

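The comparison set the Aiolos single mutant (Aiolos-/-, 2 arrays) against the OBF-1 single mutant (OBF-1-/-, 2 arrays), which are 4 of the 8 arrays of the study. The other 4 were 2 wild-type arrays and 2 of the double mutant, which lacks both proteins. Each array measured RNA of pre-BII cells (B220+ CD25+), sorted from bone marrow of 7-week-old C57BL/6 mice and pooled from 8 animals per sample. The sort took large, dividing and small, resting pre-BII cells together. The deletions were germline, so that all cells of a mouse carried them. A probe set, the group of oligonucleotides that reports 1 transcript, was included if its mean intensity reached 100 in either single mutant. That left 9529 of 22626 probe sets, of which 8945 reached 100 in both genotypes, 282 only in Aiolos-/- and 302 only in OBF-1-/-. At the edge of this limit, the Cyth3 probe set read 103 and 97.4 in OBF-1-/- and was included, and the Tgm3 probe set read 102 and 98.3 in Aiolos-/- with 97.7 and 97.3 in OBF-1-/- and was not. Values are RMA intensities on a linear scale, and differences are log2 Aiolos-/- minus log2 OBF-1-/-, so a positive difference means more signal in the mutant that still had OBF-1. All 8 arrays shared 1 estimate of the spread, and a difference was called at a Benjamini-Hochberg adjusted p below 0.05 in limma.

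Aiolos is the product of Ikzf3, a DNA-binding relative of Ikaros with zinc fingers that represses or activates genes in lymphocytes. OBF-1, encoded by Pou2af1, binds no DNA of its own and acts as a coactivator for Oct-1 and Oct-2 at octamer motifs, such as those in immunoglobulin promoters. In the large pre-B cell the immunoglobulin heavy chain pairs with the surrogate light chain, made of lambda5 (Igll1) and VpreB, to form the pre-B cell receptor with Cd79a and Cd79b. The cell then shuts down the surrogate light chain genes, stops dividing and rearranges its light chain genes as a small pre-B cell. Between the 2 single mutants a gene can differ because either loss moved it, so the wild-type and double-mutant arrays were read beside each comparison.

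The arrays were alike in overall signal, with medians of 66.8 to 69.4 and Pearson's r across probe sets of 0.9961 to 0.9965 within a genotype against 0.9878 to 0.9946 between genotypes. All 4 arrays that lacked Aiolos were run on fluidics station 1 and the other 4 on station 2, and all 4 that lacked OBF-1 used modules 3 and 4. Genotype and station or module thus cannot be told apart in any comparison of the single mutants. The hybridisation controls, bacterial and phage transcripts added to each sample, were 0.48 to 0.66 higher on the log2 scale on the Aiolos-/- arrays than on the OBF-1-/- arrays, and 0.25 to 0.39 higher in wild type than in OBF-1-/-. Their part in the gene differences was not tested. With 2 pools per genotype, p-values measure only the spread between these samples.

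Most pre-B markers gave signal above the limit of 100 in the sorted cells. Of 12 pre-BII markers measured, 11 were above it. In Aiolos-/-, 2 (Vpreb3 and Cd79b) were called higher and 2 (Rag2 and Ebf1) lower, and the median over the 12 was −0.10. Over all genes with a probe set, 1.48% were called higher and 1.65% lower. Rag1, a recombinase subunit, read 3237 and 2847 in OBF-1-/- and 2588 and 2899 in Aiolos-/-, and Ptprc, which encodes B220, read 2166 and 2116 against 1969 and 2176. Il2ra, which encodes CD25, the antigen of the sort, read 676 and 598 in OBF-1-/- and 472 and 485 in Aiolos-/- (log2 difference −0.41, adjusted p = 0.0664). Signal of Pax5, the factor that fixes B-cell identity, lay between 58.4 and 72.6 on all 8 arrays and was below the limit of 100. Of 18 granulocyte and monocyte genes measured, 16 were above the limit and 0 were called. Their summed intensity was 31332 and 35825 in OBF-1-/- and 29393 and 30220 in Aiolos-/-, next to 25776 to 25828 in wild type. Of 8 erythroid genes, 1 (Car2) was called lower in Aiolos-/-, and their sum was 1618 and 2235 in OBF-1-/- against 1150 and 1459 in Aiolos-/-. Of 5 plasma-cell genes, 1 (Sdc1) was called lower and 0 higher, with a median of −0.36 and sums of 3986 and 3752 in OBF-1-/- against 3208 and 2913 in Aiolos-/-. Of 13 markers of the earlier pro-B and pre-BI cells, 3 (Igll1, Vpreb1 and Cd93) were called higher and 0 lower, with a median of 0.07. None of 8 T-cell genes, 11 genes of NK cells, dendritic cells and basophils or 6 megakaryocyte genes was called. Only 1, 2 and 1 of these, in that order, were above the intensity limit, so the lack of calls says little about these cells. In such bulk samples fewer cells of a type and less RNA per cell cannot be told apart, which holds for large and small pre-BII cells too, and the part of these cell types in the differences was not tested.

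The targeted OBF-1 gene separated the 2 mutants. Pou2af1 read 241 and 236 in OBF-1-/- and 170.1 and 273 in the double mutant, against 2434 and 2842 in Aiolos-/- and 2761 and 2678 in wild type. The 4 arrays labelled as lacking OBF-1 were all far below the other 4, and the single mutants differed by 3.46 ± 0.17 (SE, n = 2 arrays per genotype; adjusted p = 4.74e-07). The annotation pairs no probe set with Ikzf3, and the Aiolos labels were not checked by their own transcript here.

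Across the 9529 probe sets, 213 were higher and 260 lower in Aiolos-/-. Over all 22626 tested, the background was 304 higher (1.34%) and 322 lower (1.42%), 2.77% in all, and 46.3% had single-mutant arrays that did not overlap, which held for all 473 called. Of the 282 probe sets that entered only through Aiolos-/-, 59 were called higher, and of the 302 that entered only through OBF-1-/-, 50 were called lower, and that limit favoured these directions. The higher differences were larger. Among the 213, 53 were at least 2-fold and 16 at least 4-fold, whereas 14 of the 260 lower probe sets were at least 2-fold and 0 at least 4-fold. The median was 0.69 for the higher and −0.58 for the lower probe sets.

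By the order of the arrays, most called differences followed 1 of the 2 losses, and 93 of 473 followed neither. A probe set was said to follow OBF-1 if the 2 arrays of OBF-1-/- and the 2 of the double mutant all lay on the same side of the other 4, and to follow Aiolos if the 2 arrays of Aiolos-/- and the 2 of the double mutant did. Of the 213 higher probe sets, 120 followed OBF-1, 65 followed Aiolos and 28 followed neither. Among the 53 that were higher by at least 2-fold, 42 followed OBF-1 and 9 followed Aiolos. The 260 lower probe sets divided into 101 that followed OBF-1, 94 that followed Aiolos and 65 that followed neither. Over all probe sets tested, called or not, 7.01% followed OBF-1 and 9.13% followed Aiolos in one direction or the other. Of the 9529 above the intensity limit, 1042 followed OBF-1 and 1368 followed Aiolos. To follow either loss, the single-mutant arrays must not overlap, which held for all 473 called but for 46.3% of all tested. These shares are thus not a like background for the called probe sets. The wild-type and double-mutant means both lay between those of the single mutants in 84 of the higher and 146 of the lower probe sets. In these the single mutants lay on opposite sides of wild type. A probe set that followed 1 loss can thus also differ with the other. For single losses over all probe sets, OBF-1-/- had 0.946% called higher and 1.14% lower than wild type, and the double mutant 1.75% higher and 1.19% lower than Aiolos-/-. The single mutants take part in the splits, so the splits describe the called genes and are no further test of them. The Aiolos split is also that of the fluidics stations and the OBF-1 split that of the modules, so loss and station or module cannot be told apart.

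**Figure D1:**
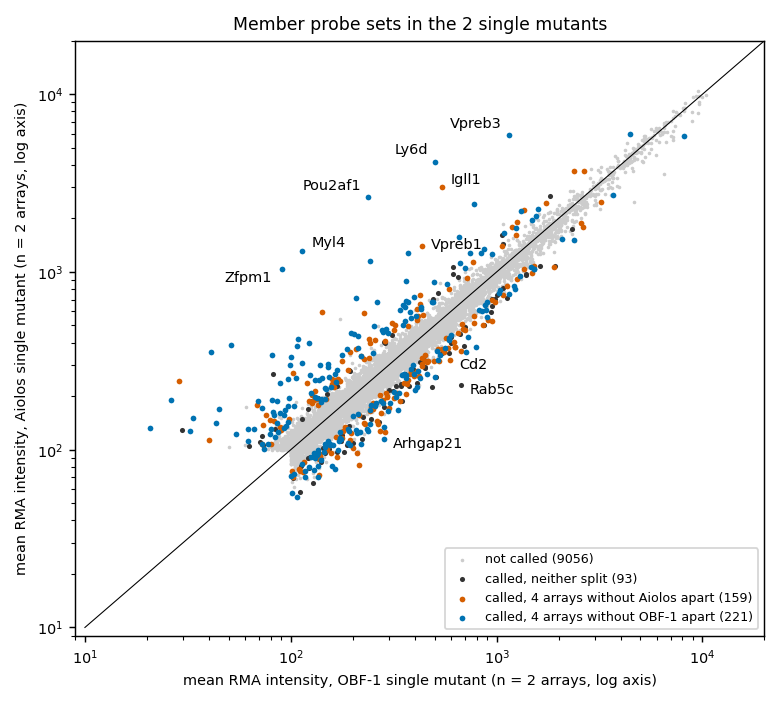
Mean RMA intensity of the 9529 probe sets in OBF-1-/- (horizontal, log axis) and Aiolos-/- (vertical, log axis), each the mean of 2 arrays, with the diagonal as equality. Called probe sets are blue where they followed OBF-1 (221), orange where they followed Aiolos (159) and black where they followed neither (93), and the points farthest above the diagonal include Zfpm1, Myl4, Pou2af1 and Ly6d.

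The pre-B cell receptor genes had the highest median difference of the 39 lists of genes examined. The lists were chosen with earlier results of these data known, so this rank is a description and no test. Of 6 measured, 4 (Igll1, Vpreb3, Vpreb1 and Cd79b) were higher in Aiolos-/- and 0 lower. The median of 1.06 fell between Vpreb1 (1.70) and Cd79b (0.42). Over the 12393 genes with a probe set, 1.48% were called higher and 1.65% lower, and the median was 0.01. The same shares are the background for the lists below. Igll1, which encodes lambda5, read 538 and 546 in OBF-1-/- and 3158 and 2819.9 in Aiolos-/-, next to 327 and 281 in wild type and 5904 and 5408 in the double mutant. All 4 genotypes were apart, wild type lowest and the double mutant highest. The difference between the single mutants was 2.46 ± 0.11 (adjusted p = 1.22e-07), a 5.5-fold higher signal in Aiolos-/-. Vpreb1, the partner of lambda5, read 461 and 406 in OBF-1-/-, 1435 and 1375 in Aiolos-/-, 195 and 191 in wild type and 3242 and 3478 in the double mutant. It had the same order of genotypes, with a difference of 1.70 ± 0.10 (adjusted p = 1.87e-06). A probe set shared by Vpreb2 and Vpreb1 read 231 and 222 in OBF-1-/- and 623 and 553 in Aiolos-/- (1.37 ± 0.10, adjusted p = 1.14e-05) and cannot separate these near-identical genes. The surrogate light chain genes thus were above wild type in both single mutants: for Igll1 by 3.30 in Aiolos-/- (adjusted p = 2.57e-08) and by 0.84 in OBF-1-/- (adjusted p = 0.00118). The Igll1 probe set may also detect related transcripts.

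Vpreb3, a chaperone that binds immunoglobulin chains in pre-B cells, was higher in Aiolos-/- by another pattern. It read 1108 and 1197 in OBF-1-/-, 6035 and 5798 in Aiolos-/-, 5997 and 5822 in wild type and 1759 and 1836 in the double mutant. The Aiolos-/- and wild-type arrays overlapped, and the difference between the single mutants was 2.36 ± 0.09 (adjusted p = 5.06e-08). Cd79b, a signalling chain of the receptor, read 4470.5 and 4437 in OBF-1-/- and 5706 and 6190.5 in Aiolos-/- (0.42 ± 0.09, adjusted p = 0.0317), and its call was lost when any 1 of the 4 single-mutant arrays was left out. Its partner Cd79a read 8353 and 9365 against 7079 and 7126 (−0.32, adjusted p = 0.106), and Ighm, the heavy chain, 9044 and 10760.3 against 9485 and 9806 (−0.03, adjusted p = 0.938). These 2, the brightest probe sets of the list, were not called. Top3b, a topoisomerase gene beside the Vpreb1 region, read 393 and 439 in OBF-1-/- and 582 and 553 in Aiolos-/- (0.45 ± 0.10, adjusted p = 0.0326).

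With 1 probe set taken per gene, the 4 largest higher differences belonged to genes that were lower in both genotypes without OBF-1, Pou2af1 among them. Zfpm1, which encodes the GATA cofactor FOG-1, read 69.4 and 113 in OBF-1-/- and 1066 and 1004 in Aiolos-/-, against 892 and 863 in wild type and 97 and 90.7 in the double mutant. The 2 groups of 4 arrays did not overlap, and the difference was 3.55 ± 0.17 (adjusted p = 3.89e-07). Myl4, an embryonic and atrial myosin light chain, read 115 and 113 in OBF-1-/- and 1265 and 1367 in Aiolos-/-, against 1745 and 1886 in wild type and 114 and 90.4 in the double mutant. Its difference was 3.53 ± 0.11 (adjusted p = 1.48e-08), and a second Myl4 probe set with a difference of 0.13 was not called. Ly6d, a surface protein that marks B-lineage progenitors, read 481 and 523 in OBF-1-/- and 4079.8 and 4277 in Aiolos-/-, against 4359 and 4476 in wild type and 464 and 417 in the double mutant. The arrays with OBF-1 were all above those without, and the difference was 3.06 ± 0.10 (adjusted p = 1.48e-08). For these 3 genes the Aiolos-/- mean differed from wild type by −0.46 to 0.24, with adjusted p of 0.067 or more. Zfpm1, and Fmn2, Rsph1, Gas7, Igk, Atm, Gadd45b, Ajuba, Socs2 and H2-DMa among the genes given after it, reached the limit of 100 only in Aiolos-/-. The OBF-1-/- signal of these genes was dim and has no detection call here, so their differences hold on the RMA scale and are not exact folds.

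Other higher genes that followed OBF-1 spanned the cytoskeleton, signalling and immunoglobulin transcripts. Fmn2, a formin that nucleates actin filaments, read 29 and 23.6 in OBF-1-/- and 135 and 245 in Aiolos-/- (2.80 ± 0.24, adjusted p = 5.24e-05). Cnn3, a calponin that binds actin, read 491 and 499.9 against 863 and 901 (0.83 ± 0.09, adjusted p = 3.46e-04), and Hip1r, which links actin to clathrin coats, read 354 and 372 against 675 and 699 (0.92 ± 0.10, adjusted p = 3.28e-04). With Myl4, these made 4 of 20 actin and contractile genes that were higher, 0 were lower, and the median of the 20 was 0.04. The shares over all genes were 1.48% higher and 1.65% lower. Rsph1, a protein of motile cilia, read 31.6 and 35.2 against 152 and 149 (2.17 ± 0.13), and Gas7, an actin regulator outside that list, 41.7 and 47.8 against 148 and 190.4 (1.91 ± 0.12). Trib2, a pseudokinase, was less even, at 358 and 128 in OBF-1-/- and 1304 and 997 in Aiolos-/- (2.41 ± 0.33, adjusted p = 0.00209). Cd93, a surface protein of early B-lineage cells, read 815 and 743 against 2380.4 and 2428, with wild type at 1855 and 1904 and the double mutant at 1170.2 and 1291. All 4 genotypes were apart, and the difference was 1.63 ± 0.09 (adjusted p = 1.91e-06). A kappa light chain probe set read 52.7 and 49.6 in OBF-1-/- and 365 and 416 in Aiolos-/- (2.93 ± 0.10), but a second one assigned to the same locus differed by 0.04 (adjusted p = 0.934). An Igha probe set that may cross-hybridise read 96.4 and 121 against 492 and 351 (1.94 ± 0.24, adjusted p = 8.92e-04). The transcript detected by these immunoglobulin probe sets is thus not settled.

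Signalling genes were also among those called. Gadd45b, a stress and NF-kB response gene, read 101 and 99.1 in OBF-1-/- and 300.3 and 361 in Aiolos-/- (1.72 ± 0.11, adjusted p = 4.2e-06). Traf5, an adaptor of TNF receptors, read 192 and 162 against 309 and 369.9 (0.93 ± 0.13, adjusted p = 0.00207). Of 16 NF-kB and TNF receptor genes, these 2 were higher, Ltb was lower, and the median was 0.17. Egr1, an immediate early transcription factor, read 111 and 116 in OBF-1-/- and 281 and 330.2 in Aiolos-/- (1.42 ± 0.11, adjusted p = 2.08e-05), the only 1 of 19 immediate early genes to be called among those above the intensity limit. Itpr3, a calcium channel of the endoplasmic reticulum, read 351 and 325 against 574 and 651 (0.86 ± 0.13, adjusted p = 0.0043). With Ptpn6, a phosphatase that restrains receptor signalling (0.42 ± 0.09, adjusted p = 0.0326), which followed neither loss, it made 2 of 25 B-cell receptor signalling genes that were higher, whereas 1, the kinase gene Fyn, was lower.

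Several MHC class II genes, which present peptides on maturing B cells, were higher in Aiolos-/- than in OBF-1-/-. Of 8 measured, 3 were called higher and 0 lower, with a median of 0.38, next to 1.48% higher and 1.65% lower over all genes. H2-Ab1 read 239 and 269 in OBF-1-/- and 523 and 474 in Aiolos-/- (0.97 ± 0.16, adjusted p = 0.00696), H2-Aa 385 and 410.4 against 767 and 680.5 (0.86 ± 0.18, adjusted p = 0.0249), and H2-DMa 92.5 and 96.7 against 141 and 132 (0.53 ± 0.11, adjusted p = 0.03). All 3 followed OBF-1, and H2-Ab1 read 497 and 602 in wild type and 250 and 368 in the double mutant. Between Aiolos-/- and wild type the 3 differed by −0.18 to −0.04, and none was called. Cd74, the invariant chain, read 1638 and 1591 against 2007 and 2215 and missed the threshold (0.39, adjusted p = 0.0684). The count fell to 0 without OBF-1-/- replicate 1 or Aiolos-/- replicate 1 and to 1 without the second array of either mutant. Ms4a1, which encodes CD20, read 1494 and 1471 in OBF-1-/- and 1911 and 2023 in Aiolos-/- (0.41 ± 0.10, adjusted p = 0.0437), with the double mutant lowest at 580.2 and 650.4. Of 16 markers of immature and mature B cells, Ms4a1 was the 1 called higher, whereas Ltb and Ccr7, a chemokine receptor at 408 and 376 against 301 and 300.1 (−0.38 ± 0.09, adjusted p = 0.0441), were lower, and the median was 0.10. The Ms4a1 call was kept without either double-mutant array and lost without any 1 of the other 6.

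**Figure D2:**
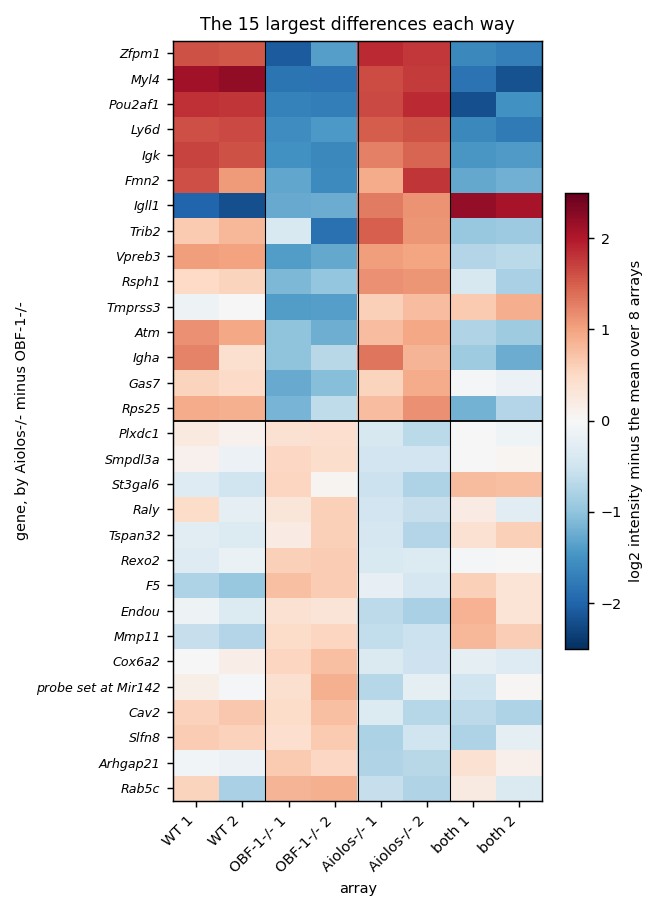
The 15 largest higher (above the line) and 15 largest lower differences between the single mutants, as log2 intensity minus the gene's mean over the 8 arrays (colour scale), with 1 column per array. Most genes above the line are blue in both OBF-1-/- and double-mutant columns, whereas Igll1 and Tmprss3 are red in both genotypes that lack Aiolos.

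Octamer motifs are the sites at which OBF-1 is recruited, so promoters were searched for ATGCAAAT and its reverse complement ATTTGCAT in the 300 bases from 250 before to 50 after the RefSeq start (GRCm38.p6). The motif was in 570 of 32851 promoters (1.74%) and in 183 of the 9888 genes measured that had one (1.85%). It was in 6 of 110 genes called higher in Aiolos-/- (5.45%: Itpr3, Il18, Vpreb3, Zfp428, Sinhcaf and Cables2) and in 2 of 138 called lower (1.45%: Kcnab2 and Chchd10). The Ikaros-family core TGGGAA, or TTCCCA on the other strand, was in 25.6% of all promoters, 27.3% of the higher and 29% of the lower genes. A match is a description of these letters in this window and does not show binding. The promoters of Vpreb3 (chr10:75948050-75948349, plus strand), Itpr3 (chr17:27057054-27057353, plus strand) and Zfp428 (chr7:24506837-24507136, plus strand) are shown as 3 examples that hold an octamer and followed OBF-1, and that of Igll1 (chr16:16863936-16864235, minus strand) because it followed Aiolos and has neither motif in this window. Cables2 (3 octamers), Kcnab2 and Chchd10 also followed OBF-1, whereas Il18 and Sinhcaf did not. Sequence farther from the start, and sites that differ from these letters, were not searched. For Igll1, the study reported OBF-1 bound at putative octamer sites farther upstream, by chromatin immunoprecipitation in a B lymphoma line. It also described adjacent sites near the Igll1 start that Ikaros and Aiolos can bind. The lack of a match here thus does not mean that Igll1 lacks such sites. Zfp428, a zinc-finger gene with a difference of 1.23 (adjusted p = 2.11e-04), was chosen after its values were seen, as were the Itpr3 and Igll1 promoters. Capitals mark the octamer, 1 in Vpreb3 and Itpr3 and 2 in Zfp428.
Vpreb3: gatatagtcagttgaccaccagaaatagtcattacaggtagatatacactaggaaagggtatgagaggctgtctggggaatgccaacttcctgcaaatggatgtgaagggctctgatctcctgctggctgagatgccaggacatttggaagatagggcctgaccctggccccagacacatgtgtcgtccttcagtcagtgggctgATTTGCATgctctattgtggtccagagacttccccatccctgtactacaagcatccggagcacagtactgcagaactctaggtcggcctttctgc
Itpr3: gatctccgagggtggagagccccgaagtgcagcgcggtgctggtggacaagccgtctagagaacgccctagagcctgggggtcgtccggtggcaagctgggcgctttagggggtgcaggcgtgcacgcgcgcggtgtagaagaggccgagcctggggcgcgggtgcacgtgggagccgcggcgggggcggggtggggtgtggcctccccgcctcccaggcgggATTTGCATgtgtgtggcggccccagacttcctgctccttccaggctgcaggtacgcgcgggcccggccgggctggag
Zfp428: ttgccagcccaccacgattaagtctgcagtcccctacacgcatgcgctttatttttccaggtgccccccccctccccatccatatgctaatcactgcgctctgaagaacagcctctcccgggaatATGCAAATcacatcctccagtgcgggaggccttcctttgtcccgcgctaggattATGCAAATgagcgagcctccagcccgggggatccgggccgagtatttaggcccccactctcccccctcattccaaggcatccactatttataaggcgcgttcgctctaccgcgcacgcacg
Igll1: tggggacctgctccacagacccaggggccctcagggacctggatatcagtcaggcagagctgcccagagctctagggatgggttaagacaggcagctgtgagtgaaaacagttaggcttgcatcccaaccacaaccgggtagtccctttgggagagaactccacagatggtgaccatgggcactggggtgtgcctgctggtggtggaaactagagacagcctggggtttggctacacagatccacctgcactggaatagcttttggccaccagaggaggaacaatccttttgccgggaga

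Besides the surrogate light chain, a smaller set of genes was higher in both genotypes that lack Aiolos. Tmprss3, a transmembrane serine protease, read 140.3 and 143 in OBF-1-/- and 559 and 631 in Aiolos-/-, against 337 and 372 in wild type and 579.7 and 692 in the double mutant. The Aiolos-/- and double-mutant arrays overlapped, OBF-1-/- was lowest, and the difference was 2.07 ± 0.11 (adjusted p = 1.01e-06). Against wild type, OBF-1-/- differed by −1.32 (limma adjusted p = 4e-05) and Aiolos-/- by 0.75 (limma adjusted p = 0.00848), so Tmprss3 moved with both losses. Ramp1, a partner of calcitonin family receptors, read 215 and 263 in OBF-1-/- and 484 and 359.7 in Aiolos-/-, with wild type at 124 and 139.9 and the double mutant at 1243 on both arrays. Its order was that of Igll1, and the difference was 0.81 ± 0.14 (adjusted p = 0.00937). Socs2, a feedback inhibitor of cytokine signalling, read 80.1 and 71.1 against 181 and 132 (1.03 ± 0.18, adjusted p = 0.00912) and was the 1 called gene among 13 of interleukin 7 and 2 receptor signalling. Il7r, the receptor itself, read 2679 and 2704 against 2287 and 2031 (−0.32, adjusted p = 0.139). Ajuba, a LIM-domain adaptor, read 39.1 and 40.7 in OBF-1-/- but 157 and 69.3 in Aiolos-/- (1.38 ± 0.28, adjusted p = 0.0212). Fzd9, a Wnt receptor, read 130.2 and 124 against 226 and 179 (0.66 ± 0.14, adjusted p = 0.0276), and Ahnak, a large scaffold protein, 159 and 158 against 253 and 247 (0.66 ± 0.10, adjusted p = 0.00352).

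Of the 14 probe sets lower by at least 2-fold, 7 were high in both genotypes that lack OBF-1 and 4 were low in both that lack Aiolos. Arhgap21 read 298 and 271 in OBF-1-/- and 112 and 117 in Aiolos-/-, with wild type at 179 and 170.0 and the double mutant at 245 and 206. The 4 genotypes were apart, OBF-1-/- highest and Aiolos-/- lowest, and the difference was −1.31 ± 0.11 (adjusted p = 3.31e-05). Mmp11, a matrix metalloproteinase, read 278 and 292 against 131 and 139, with wild type at 135 and 121 and the double mutant at 358 and 308. Aiolos-/- overlapped wild type, and the difference was −1.08 ± 0.10 (adjusted p = 1.59e-04). Endou, an endoribonuclease, read 809.7 and 778 in OBF-1-/- and 398 and 356 in Aiolos-/- (−1.08 ± 0.15, adjusted p = 0.00221). F5, a coagulation factor, read 345 and 320.5 against 178 and 154 (2.01-fold higher in OBF-1-/-, adjusted p = 6.74e-04). Sdc1, which encodes CD138, read 748 and 702 against 457 and 401, with wild type at 412 and 398 and the double mutant at 845 and 749. The Aiolos-/- and wild-type arrays overlapped, and the difference was −0.76 ± 0.10 (adjusted p = 0.00195). St3gal6, a sialyltransferase, was lower in the same way (−0.96 ± 0.14, adjusted p = 0.00326). So were the tetraspanins Tspan32 (−0.98 ± 0.14, adjusted p = 0.0034) and Tspan2 (−0.68 ± 0.13, adjusted p = 0.0195). St3gal6 and Tspan32 reached the intensity limit only in OBF-1-/-, and their differences are not exact folds.

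Of the recombination genes, Rag2 was lower and Rag1 was not called. Rag2, the second recombinase subunit, read 461 and 391 in OBF-1-/- and 241 and 266 in Aiolos-/-, with wild type at 269 and 288 and the double mutant at 377 and 547. The arrays with OBF-1 were all below those without, the difference was −0.74 ± 0.15 (adjusted p = 0.0233), and the call was lost when any 1 of the 4 single-mutant arrays was left out. Polm, a polymerase of end joining, read 629.6 and 703 against 1155 and 1085 (0.75 ± 0.11, adjusted p = 0.00264), and Atm, the kinase that senses DNA breaks, read 34.6 and 30 against 119 and 137 (1.98 ± 0.11, adjusted p = 1.87e-06). These were 2 higher and 1 lower of 12 V(D)J recombination genes, with a median of 0.00, next to 1.48% higher and 1.65% lower over all genes. Rag1 differed by −0.15 (95% interval −0.38 to 0.08), and Xrcc6, which encodes Ku70, by −0.40 (−0.62 to −0.19, adjusted p = 0.0504). S1pr4, a sphingosine phosphate receptor (−0.62 ± 0.09, adjusted p = 0.00385), and Fyn (−0.72 ± 0.11, adjusted p = 0.00399) also followed OBF-1.

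A second lower set was reduced in both genotypes without Aiolos. Cd2, an adhesion receptor that appears as pre-B cells mature, read 597 and 592 in OBF-1-/- and 321 and 318 in Aiolos-/-, with wild type at 658 and 616 and the double mutant at 192 and 193. OBF-1-/- lay just below wild type and the double mutant was lowest, and the difference was −0.90 ± 0.09 (adjusted p = 1.71e-04). Slfn8 and Slfn2 belong to the Schlafen family, linked to lymphocyte quiescence. Slfn8 read 262 and 309 against 113 and 138 (−1.19 ± 0.16, adjusted p = 0.00197), and Slfn2 read 807 and 905 against 466 and 539 (−0.77 ± 0.10, adjusted p = 0.00183). Cav2, a caveolar protein, read 188 and 231 in OBF-1-/- and 108 and 83.5 in Aiolos-/- (−1.14 ± 0.13, adjusted p = 7e-04), although a second probe set differed by −0.12. Cox6a2, a muscle-type subunit of cytochrome oxidase, read 253 and 290.0 against 135 and 120.2 (−1.09 ± 0.11, adjusted p = 1.91e-04), and Plxdc1, a plexin-domain membrane protein, 135 and 139 against 78.5 and 64.9 (−0.94 ± 0.11, adjusted p = 6.78e-04). Cav2, by the probe set that was called, and Plxdc1 reached the intensity limit only in OBF-1-/-. Their Aiolos-/- signal was dim and has no detection call here, so these differences are not exact folds. S100a10, a partner of annexin A2, read 1564 and 1402 against 955 and 1006 (−0.60 ± 0.10, adjusted p = 0.00782). Of 20 surface and adhesion genes, 1 (Ly6d) was higher and 5 (Tspan32, Cd2, Tspan2, Icam2 and Cd9) were lower, with a median of −0.06. Over all genes, 1.48% were called higher and 1.65% lower.

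**Figure D3:**
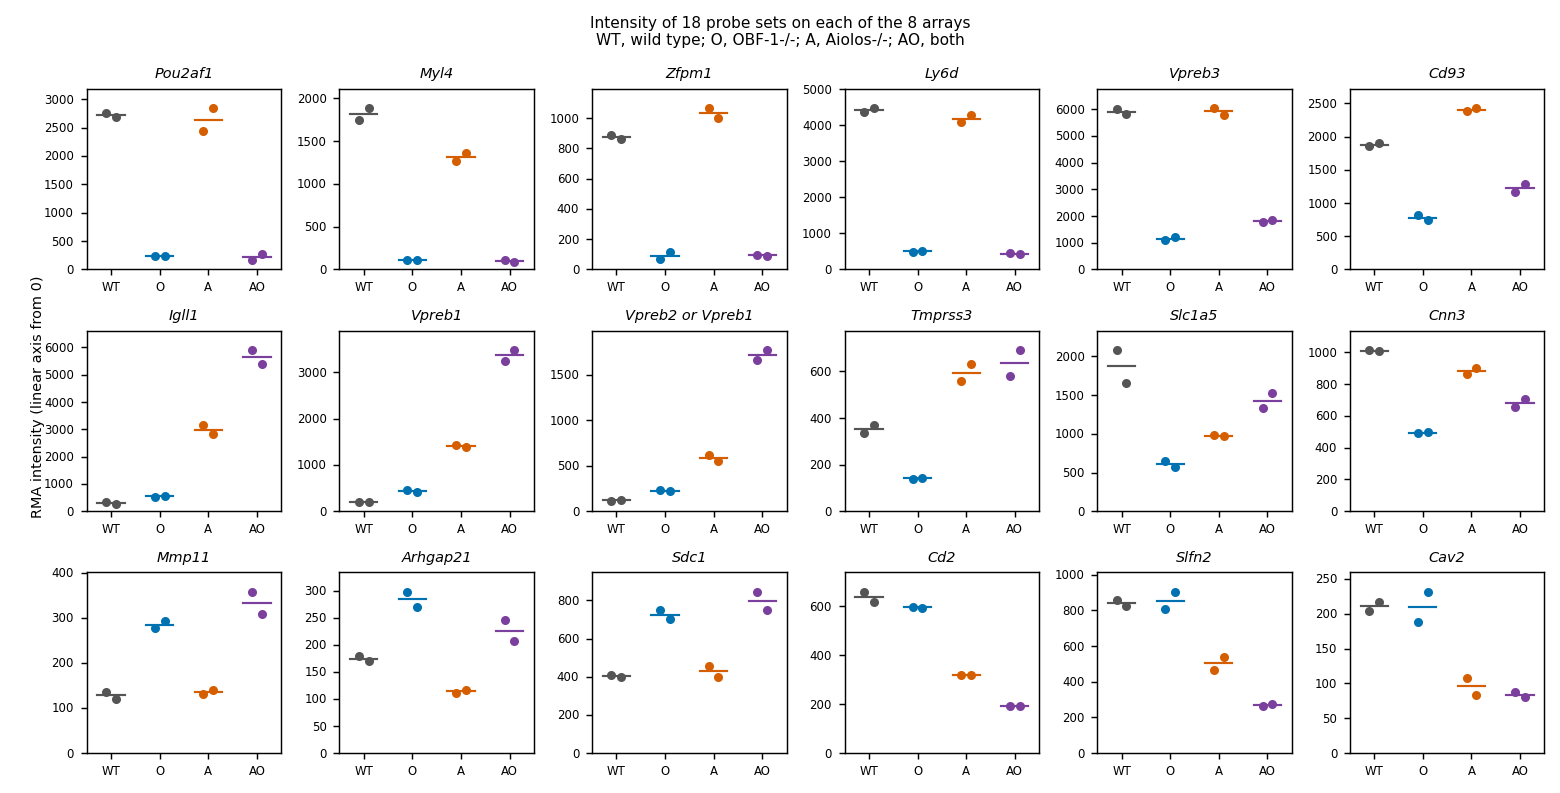
RMA intensity (vertical, linear from 0) of 18 probe sets on each array, with a point per array and a bar at the mean of the 2 arrays of wild type (WT), OBF-1-/- (O), Aiolos-/- (A) and the double mutant (AO). Pou2af1, Myl4, Zfpm1 and Ly6d were low in O and AO, Igll1 and Vpreb1 rose from WT through O and A to AO, and Cd2, Slfn2 and Cav2 were low in A and AO.

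Of 24 B-lineage transcription factors, 2 were lower and 0 higher in Aiolos-/-, with a median of −0.04. Ebf1, a factor that specifies the B lineage, read 1036 and 1112 in OBF-1-/- and 667 and 821 in Aiolos-/-, with wild type at 1177 and 1044 and the double mutant at 747 and 811. It was lower on all 4 arrays without Aiolos, and the difference was −0.54 ± 0.12 (adjusted p = 0.0298). Ets1 read 1236 and 1270.2 against 865 and 967 (−0.45 ± 0.10, adjusted p = 0.0254). Irf4, which acts in light chain gene activation, read 2331 and 2197 in OBF-1-/- and 1780.2 and 1639.7 in Aiolos-/- and missed the threshold (−0.41, 95% interval −0.63 to −0.18, adjusted p = 0.0608). The intervals were −0.21 to 0.33 for Irf8, −0.11 to 0.29 for Spib and −0.17 to 0.39 for Ikzf1, the gene of Ikaros, none of which was called.

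Genes of mitosis were lower in Aiolos-/-, and genes of DNA replication were not called. Of 18 mitosis genes, 10 were lower and 0 higher in Aiolos-/-, and the median was −0.61. Over all genes with a probe set, 1.65% were called lower and 1.48% higher, with a median of 0.01. Plk1, a mitotic kinase, read 159.5 and 180.2 in OBF-1-/- and 108 and 91.1 in Aiolos-/- (−0.78 ± 0.12, adjusted p = 0.00352). Its mean reached the intensity limit only in OBF-1-/-, so the limit favoured a lower call for it. Top2a, a topoisomerase that resolves chromosomes, read 554 and 624 against 369 and 334 (−0.74 ± 0.14, adjusted p = 0.0154), and Birc5, which encodes survivin, 351 and 402 against 231 and 228 (−0.71 ± 0.14, adjusted p = 0.0203). Ube2c, Cdk1, Kif11, Aurkb, Tacc3, Ccna2 and Aurka were the other 7. Of 19 replication genes, 0 were called in either direction, and their differences ran from −0.29 to 0.07. Over the 17 mitosis genes above the intensity limit, the median log2 intensity, taken relative to each gene's mean, was 0.26 and 0.36 in OBF-1-/-, −0.25 and −0.29 in Aiolos-/-, 0.08 and 0.11 in wild type, and −0.25 and 0.00 in the double mutant. The single mutants were thus on opposite sides of wild type, and the double-mutant arrays lay apart from each other. The 10 calls became 7 and 4 without OBF-1-/- replicates 1 and 2, and 5 without either Aiolos-/- array.

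**Figure D4:**
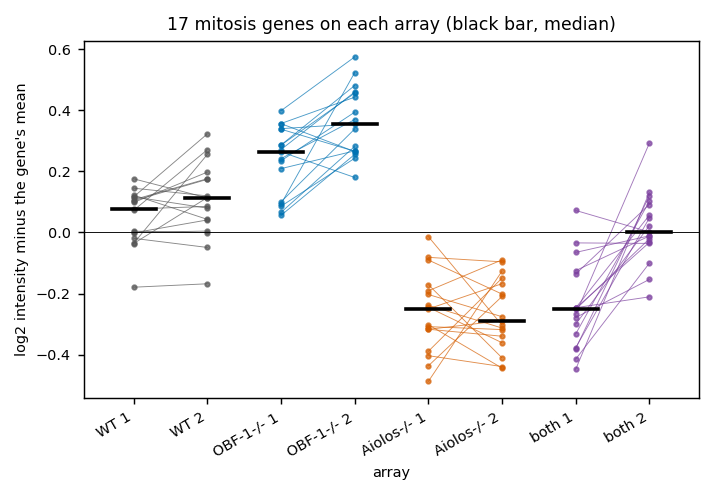
Log2 intensity of 17 mitosis genes on each of the 8 arrays (vertical, minus the gene's mean over the arrays), with a point per gene, lines joining a gene's 2 arrays of 1 genotype and a black bar at the median. The medians were 0.26 and 0.36 in OBF-1-/- and −0.25 and −0.29 in Aiolos-/-, with the double mutant at −0.25 and 0.00.

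Of the D cyclins, which drive entry into the cycle, Ccnd2 and Ccnd3 moved in opposite directions. Ccnd2 read 128 and 177 in OBF-1-/- and 266 and 316 in Aiolos-/- (0.95 ± 0.17, adjusted p = 0.00988), whereas Ccnd3, the main D cyclin of pre-B cells, read 2525 and 2242 against 1535 and 1507 (−0.65 ± 0.10, adjusted p = 0.0048). Both followed OBF-1: Ccnd2 was 311 and 360.5 in wild type and Ccnd3 was 1585 and 1448. The cycle inhibitors Cdkn1a and Cdkn2d were lower in Aiolos-/-, with Cdkn1a at 164 and 189 against 116 and 114 (−0.61 ± 0.10, adjusted p = 0.00509) and Cdkn2d at 714 and 650.1 against 496 and 518 (−0.43 ± 0.10, adjusted p = 0.0491). Of 13 D cyclins, inhibitors and related cycle genes, 1 was higher and 3 were lower, with a median of 0.02.

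Some genes followed neither loss. Smpdl3a, a phosphodiesterase, read 227 and 215 in OBF-1-/- and 114 and 115 in Aiolos-/-, with wild type at 171 and 144 and the double mutant at 159.6 and 165. The double mutant overlapped wild type, and the difference was −0.95 ± 0.10 (adjusted p = 3.28e-04). Slc1a5, a glutamine transporter, read 653 and 577 in OBF-1-/- and 986 and 967 in Aiolos-/-, but 2083 and 1660.5 in wild type and 1327 and 1532 in the double mutant, so both single mutants were lowest (0.67 ± 0.12, adjusted p = 0.0126). Ltb, a lymphotoxin subunit, read 239.5 and 296 against 147 and 138 (−0.90 ± 0.14, adjusted p = 0.0043), and was lowest in Aiolos-/-, with wild type at 268 and 244 and the double mutant at 187 and 246. Rab5c, an endosomal GTPase, had the largest lower difference (−1.54 ± 0.32, adjusted p = 0.0253), at 659 and 681 in OBF-1-/- and 245 and 217 in Aiolos-/-. Its wild-type arrays read 539 and 208, so the other genotypes give it no pattern. A probe set at the Mir142 locus was also among the 15 largest lower differences. It detects a longer transcript and not the mature microRNA, and no value is given.

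Other genes of the receptor and its signals were not called, with differences bounded by their 95% intervals. For Btk the interval was −0.23 to 0.16, for Blnk −0.34 to 0.04, for Syk −0.44 to −0.06 and for Prkcb −0.47 to −0.08, all of which are signalling proteins below the receptor. The intervals are not adjusted for the number of probe sets. Those of Syk and Prkcb lie wholly on the negative side, with limma adjusted p = 0.184 and 0.143, so a small decrease is not excluded. Gsn, an actin-severing protein, read 516 and 527 in OBF-1-/- and 510.2 and 434 in Aiolos-/- (−0.15, interval −0.38 to 0.09), whereas the double mutant stood at 1792 and 1532. Lgr5, a receptor of R-spondins, read 296 and 253 against 398 and 379 (0.51, interval 0.22 to 0.79, adjusted p = 0.0679), and the double mutant at 906 and 841. For both of these genes the double mutant was highest.

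Among the remaining lists, called genes were few. None of 9 PI3K genes, 12 BCL2-family and death genes or 13 glycolysis genes was called. Herpud1, which acts in degradation of misfolded proteins, was the 1 lower gene of 14 of the unfolded protein response (−0.44 ± 0.09, adjusted p = 0.0239), and Oas1a the 1 higher of 13 interferon response genes (0.54 ± 0.11, adjusted p = 0.0217). Car2, a carbonic anhydrase that is also an erythroid marker, read 782 and 1017 in OBF-1-/- and 503 and 620.2 in Aiolos-/- (−0.68 ± 0.15, adjusted p = 0.0337) and followed OBF-1. Xist, the transcript of the inactive X chromosome in females, read 2593 and 2752 in OBF-1-/- and 3379 and 4001 in Aiolos-/- (0.46 ± 0.11, adjusted p = 0.0467), and it was expressed on all 8 arrays. Of 4 sex-linked genes measured, with differences from −0.85 to 0.46, only Xist was above the intensity limit and only Xist was called. Whether the sex of the pooled mice differed between the genotypes was not tested.

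**Figure D5:**
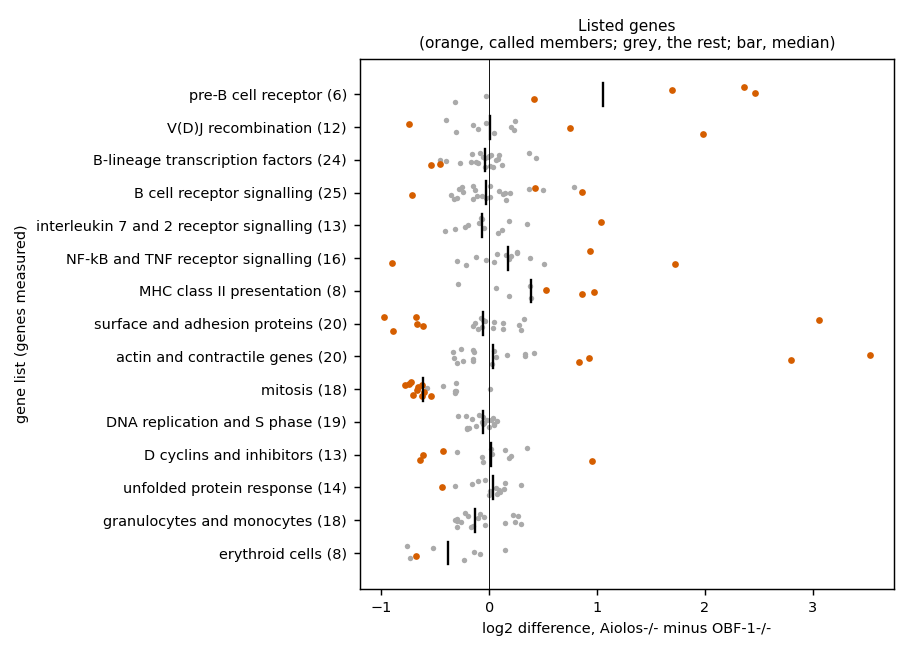
Log2 difference between Aiolos-/- and OBF-1-/- (horizontal) for each measured gene of 15 lists, with the number of genes measured in brackets, called genes above the intensity limit in orange, the rest in grey and a bar at each median. The medians farthest from 0 were those of the pre-B cell receptor (1.06) and mitosis (−0.61), in lists chosen with earlier results of these data known.

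Genes near Pou2af1 were counted because a deleted allele carries its flanking chromosome with it, and this count was made after the values were seen. Of the 200 genes nearest to Pou2af1 in gene order on chromosome 9 (100 on each side), 11 were called in the comparison (5.5%), against 3.09% elsewhere and 8 of the 483 other genes of that chromosome. They included Atm, Rps25, a ribosomal protein gene at 88 and 127 in OBF-1-/- and 334 and 431 in Aiolos-/- (1.84 ± 0.18), and Rexo2, an oligoribonuclease at 494 and 513 against 252 and 259 (−0.98 ± 0.09). All 3 followed OBF-1, and Atm and Rps25 rest on 1 probe set each. The 200 genes nearest to Ikzf3 on chromosome 11 held 7 called genes (3.5%), against 3.13% elsewhere. Whether flanking DNA of the targeted alleles, rather than loss of OBF-1, moved these neighbours cannot be told apart in these samples.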

How the data were processed

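RNA of sorted pre-BII cells was hybridised to Affymetrix MOE430A arrays, 2 pools per genotype, by the authors. The deposited values are RMA intensity on a linear scale (background-corrected and normalised over the arrays, with no RMA version given in the sources used here), 1 per probe set. Array setting files gave the fluidics station and module, and no scanner image was analysed here. Of 22690 probe sets, 64 controls were set aside. Symbols came from the platform annotation: 20380 probe sets had 1 symbol, 691 several and 1555 none. Each gene was described by 1 probe set, the brightest over the 8 arrays, and other probe sets are named where they disagree.

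Log2 intensities of all 8 arrays were fitted in limma 3.58.1 (R 4.3.3) with 1 mean per genotype, and p-values were adjusted over 22626 probe sets. Replicates were distinct arrays of the same genotype, and the number of arrays limits the precision. The prior degrees of freedom were 7.69, with 4 residual. The text names the 15 largest called differences each way, up to 4 called genes per list, the genes discussed by the study, and a few chosen after their values were seen, as stated. Members and lists were chosen with earlier results of these data known. Alternatives were quantile normalisation, median centring, an added offset of 16, other filters, trend and robust moderation, no moderation, a 2-fold minimum, the 4 single-mutant arrays alone, a replicate block and leaving out each array. On simulated data with 22626 probe sets, 89.6% of changes of 1 on the log2 scale and 38.4% of changes of 0.5 were recovered. The simulation drew independent normal noise around a common mean for each probe set. It held no effect of station, module or another genotype, so recovery on the real arrays may differ.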

Additional observations from a re-analysis of the deposited data

Results flagged for a closer look

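For 5 named genes the effect of OBF-1 loss differed with and without Aiolos, by an interaction term tested over all probe sets in limma, where 42 passed. Slc1a5 fell by 1.60 on the log2 scale with OBF-1 loss where Aiolos was present and differed by 0.55 where it was absent, a difference of 2.14 ± 0.17 (SE, adjusted p = 5.17e-04). Tmprss3 changed by −1.32 with Aiolos and by 0.09 without it (1.42 ± 0.16, adjusted p = 0.00421). Gsn changed by 0.85 with Aiolos and by 1.81 without it (0.96 ± 0.15, adjusted p = 0.0284). Ms4a1 changed by −0.72 with Aiolos and by −1.68 without it (−0.95 ± 0.13, adjusted p = 0.0177). Slfn2 changed by 0.02 with Aiolos and by −0.90 without it (−0.93 ± 0.15, adjusted p = 0.0259). Each rests on 2 arrays per genotype.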

How the results depend on the processing

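The 213 higher, 260 lower, 159 Aiolos-following and 221 OBF-1-following calls became 10, 1, 4 and 7 without moderation of the variances, and 53, 14, 13 and 49 with a 2-fold minimum. Leaving out 1 array gave 114 to 221 higher, 92 to 286 lower, 63 to 222 Aiolos-following and 112 to 257 OBF-1-following calls. Without OBF-1-/- replicate 2 they were 114, 92, 64 and 118, without Aiolos-/- replicate 1 118, 107, 63 and 135, without Aiolos-/- replicate 2 119, 115, 81 and 112, and without OBF-1-/- replicate 1 the lower calls were 153 and the Aiolos-following 105. Where an array is left out, the lone array is assumed to vary like the others. Samples with the same replicate number had correlations of deviations from −0.075 to 0.203, which do not settle whether the numbers pair the samples. With a replicate block the counts were 230, 310, 176 and 232. Quantile normalisation, median centring, an offset of 16, the other filters, trend and robust moderation, and the 4 arrays alone kept these counts within 1.5 times. Averaging a gene over its probe sets moved the medians of 12 of the 39 lists by more than the spread between replicates. These included the pre-B cell receptor (from 1.06 to 0.95) and mitosis (from −0.61 to −0.47). Of 78 named and called probe sets, 44 kept the call without any 1 array and 34 lost it without at least 1, and none reversed. Calls lost without any 1 of the 4 single-mutant arrays were those of Cd79b, Ets1, H2-Aa, H2-DMa, Herpud1, Rab5c, Rag2, Raly and Top3b, those of Ms4a1, Ptpn6, Cdkn2d and Xist were lost without either wild-type array too, and that of Ccr7 without any 1 of the 8. Calls of Ajuba, Birc5, Ebf1, Fzd9, Oas1a, Slc1a5, Tcf7l2, Top2a and Ube2c were lost without any 1 of 3 of the single-mutant arrays, and those of Car2, Ccnd2, Cdkn1a, H2-Ab1, Itpr3, Ltb, Ramp1, S100a10, Socs2 and Tspan2 without 1 or 2, with the largest adjusted p at 0.0511 for Itpr3 to 0.242 for Car2 in these. Signs turned only in genes not called. Leaving out 1 array gave log2 differences of -0.010 (without Aiolos-/- replicate 2) to 0.13 for Irf8, -0.041 (without OBF-1-/- replicate 2) to 0.27 for Ikzf1, -0.090 to 0.022 (without Aiolos-/- replicate 1) for Btk and -0.050 (without OBF-1-/- replicate 1) to 0.13 for Dntt. The cause was not tested.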

Other observations

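Serpinf1, which encodes a secreted anti-angiogenic factor and was chosen after its values were seen, had 2 probe sets of unequal response. One read 27.7 and 29.7 in OBF-1-/-, 277 and 213 in Aiolos-/-, 39.2 and 37.3 in wild type and 83.4 and 84.0 in the double mutant, with a log2 difference of 3.08 between the single mutants. The other, brighter probe set differed by 0.50 (limma adjusted p = 0.0217). Aiolos-/- was far above the other genotypes in the first, with OBF-1-/- and wild type lowest.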
